A study of Mus musculus with 8 samples.

Results

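The response of a mouse embryonic stem cell line to 2 h of 3MB-PP1 was measured by RNA sequencing, gene by gene, in 2 treated and 2 untreated libraries. The line was made in E14 cells of strain 129/Ola; its endogenous Gsk3a gene was knocked out and the kinase GSK3α was supplied by a transgene carrying the L195G change. All cells were first kept for 6 h in serum-free N2B27 medium, and the treated cells then received 5 µM 3MB-PP1. The spread was estimated together with 4 libraries of a sister line, in which Gsk3b was knocked out and GSK3β with the L132G change came from a transgene, untreated or treated with 3MB-PP1 in the same way. The genotype label of the GSK3α line names no change in Gsk3b. No vehicle is stated for the untreated cells, no line without a mutant kinase was included, the promoter of the transgene is not given in the sources used here, and each kinase is represented by 1 line. Of the 48321 genes listed, 17488 had values, and the 13959 with values in all 8 libraries and a mean of at least 1 were tested.

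GSK3α and GSK3β are closely related serine/threonine kinases that are active in resting cells. They phosphorylate β-catenin within the Axin and APC complex and so mark it for destruction, they restrain glycogen synthase, and their phosphorylation of transcription factors such as MYC often leads to degradation. In embryonic stem cells, inhibitors of both kinases are used to sustain the naive pluripotent state. An analog-sensitive kinase has a bulky residue of its ATP pocket replaced by glycine, so that it accepts bulky pyrazolopyrimidines such as 3MB-PP1 that fit poorly into most natural kinases.

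The values are the authors' scaled gene counts, in which a value of 1 stood for about 22.5 and 23.5 reads in the untreated libraries and 27.2 and 27.6 reads in the treated ones. The gene totals then correspond to 21.5 M and 22.7 M reads in the untreated libraries against 26.0 M and 26.4 M in the treated ones; the treated libraries were thus deeper, and the part of depth in the results was not tested. The libraries of a group differed by an SD of 0.143 (untreated) and 0.129 (treated) on the log2 scale. The stem cell markers Pou5f1, Sox2, Nanog, Zfp42, Sall4 and Esrrb lay between the 93.6 and the 99.5 percentile of tested genes in the untreated libraries, and none of them passed the test for the inhibitor.

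With 2 h of 3MB-PP1 the falls included the Nodal targets Lefty1, Lefty2 and Smad7, the ERK feedback genes Spry4 and Epha2, Myc, and the epiblast factors Otx2 and Foxd3, while the rises included Chac1 and Trib3, known targets of the stress factor ATF4, and 7 enzymes of cholesterol synthesis. The changes were few and small. Of the tested genes, 123 (0.881%) passed an adjusted p of 0.05, 37 of them higher (0.265%) and 86 lower (0.616%) with inhibitor. Only 6 of these reached 1.5-fold on the log2(value + 1) scale, namely Chac1 and the long non-coding RNA Gm26733 among the rises and Lefty1, Lefty2, Smad7 and the processed pseudogene Gm4782 among the falls. Changes under 1.25-fold made up 23 of the 37 rises and 72 of the 86 falls. The median log2 change over all tested genes was 0.0070, and the middle 90% of genes lay between -0.15 and 0.20. Both treated libraries were above both untreated ones for 3210 genes (23.0%) and below them for 2651 (19.0%), and all 123 genes past the threshold belonged to these.

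**Figure D1:**
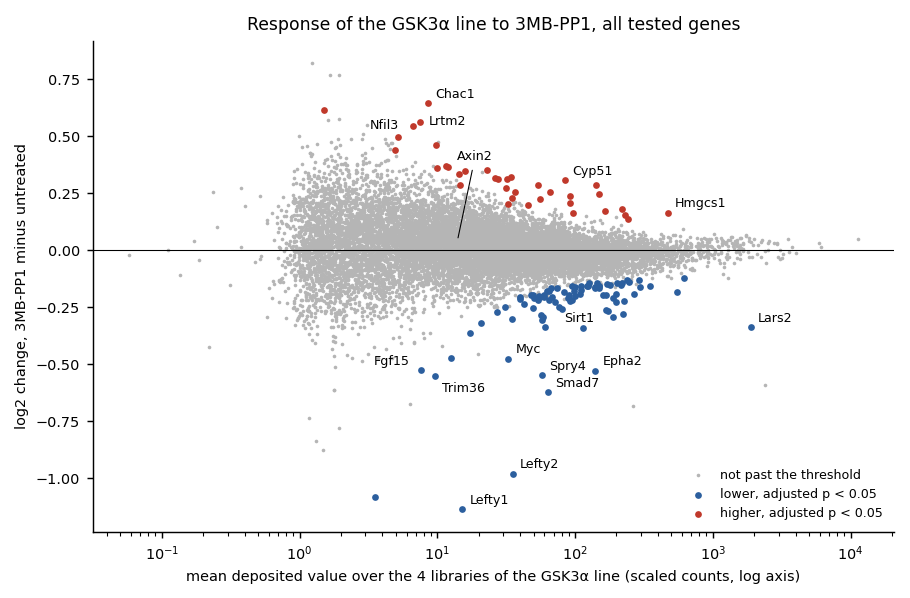
Log2 change with 3MB-PP1 (y axis) against the mean deposited value of the 4 libraries of the GSK3α line (x axis, log scale), 1 point for each of the 13959 tested genes, with the 37 rises in red and the 86 falls in blue. Lefty1 and Lefty2 lie lowest among the labelled genes, Chac1 highest, and Axin2 near 0.

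Few of the calls withstood the loss of a library. Leaving out untreated replicate 1 or 2 of the line left 55 and 60 genes past the threshold, and leaving out treated replicate 1 or 2 left 16 and 25. Without any single library, and under each of the other alternatives tried, 10 genes passed, including Epha2, Lefty1, Lefty2, Spry4, Smad7, Sirt1 and E130012A19Rik among the falls and Chac1 and Cyp51 among the rises. For the other called genes the call ended in at least 1 leave-out. Their direction could not change in any, because the groups of every called gene were separate. The labels do not say that replicates were grown separately; the p-values then reflect only how far these libraries lie apart, which may be technical spread.

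**Figure D2:**
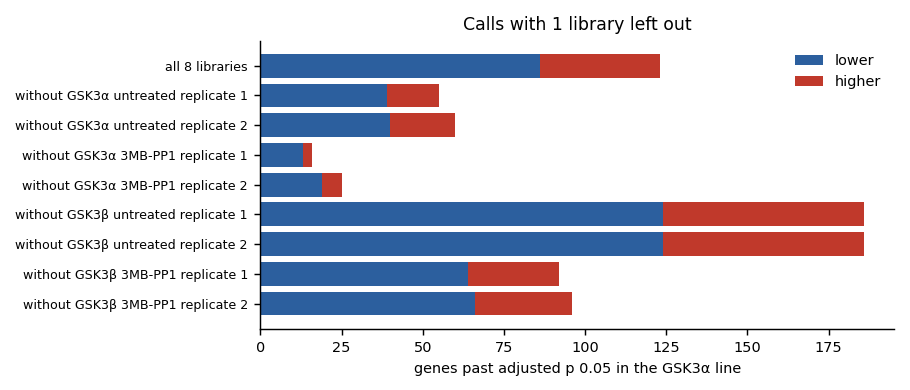
Number of genes past an adjusted p of 0.05 in the GSK3α line (x axis) with all 8 libraries and with 1 library left out (bars, falls in blue and rises in red). The counts run from 16, without treated replicate 1 of the GSK3α line, to 186, without either untreated library of the GSK3β line.

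Genes with high values and long transcripts of low GC content were frequent among the falls. With the tested genes split into 5 equal bins by mean value, from the lowest to the highest, the falls numbered 1, 3, 5, 29 and 48, and the rises 1, 9, 8, 8 and 11. The median SE of a gene declined over the same bins from 0.14 to 0.035. Genes called lower had a median transcript length of 3904 nt and a median GC content of 47.3%, against 3039 nt and 50.2% over all tested genes and 2984 nt and 52.9% for genes called higher. With the trends on transcript length and GC removed from each library, an alternative chosen after seeing the data, 166 genes passed, 33 higher and 133 lower, so that falls made up 80.1% of the calls against 69.9% without this step, and 113 of the 123 were among them.

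The targeted gene itself was read first. Gsk3a (chromosome 7, 25228258 to 25237851, mm10) had values of 155 and 160.0 untreated and 141 and 142 with the inhibitor, with a log2 difference of -0.16 ± 0.034 (SE) and an adjusted p of 0.0345. The treated libraries lay below the untreated ones, but the call ended without any 1 of the 4 libraries of the line, with an adjusted p of up to 0.353, and also without either treated library of the GSK3β line. Whether transcripts of the transgene count toward the gene is not given in the sources used here, so the knocked-out locus and the transgene cannot be told apart in this value. Gsk3b, the paralog, had 58.2 and 54.7 untreated and 52.7 and 55.3 with the inhibitor, with overlapping groups and an adjusted p of 0.604.

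Among genes of the Wnt pathway, Axin2 did not pass the test. Axin2, a scaffold of the destruction complex and a standard target of β-catenin, had 13.9 and 13.7 untreated and 14.5 and 13.9 with the inhibitor, so the groups overlapped. Its log2 change was 0.039 ± 0.065 (adjusted p = 0.869), with a 95% interval of -0.098 to 0.18. Of 15 tested Wnt/β-catenin targets, 1 passed, Myc, which fell, where 0.616% of all tested genes did. The median log2 change of the list was -0.032. Lef1, a partner of β-catenin on DNA, had 13.1 and 15.05 untreated and 12.3 and 12.95 with the inhibitor (adjusted p = 0.510). Tcf7, of the same family, had 61.03 and 63.1 untreated and 57.7 and 56.6 with the inhibitor (adjusted p = 0.239). The mesodermal factor T had 3.78 and 3.23 untreated and 2.87 and 2.75 with the inhibitor (adjusted p = 0.529). In these 3, and in the homeobox gene Cdx1, the treated libraries lay lower without passing the test, while 4 of the 15 targets lay higher and the rest overlapped. Over all tested genes 19.0% lay lower and 23.0% higher. Sp5, another direct target, stood at 0.801 and 0.595 untreated and 1.40 and 0.797 with the inhibitor, so the groups overlapped. It met the minimum mean of 1 only with the libraries of the GSK3β line counted. A value of 1 stood for about 22.5 to 27.6 reads in the libraries of the GSK3α line. Notum, a secreted Wnt deacylase, had 43.6 and 44.1 untreated and 45.3 and 45.5 with the inhibitor. Ccnd1, which encodes cyclin D1, had 151 and 147 untreated and 152 and 151 with the inhibitor, a gap of the size seen between replicates. Of the 30 genes of the paralogs and the Wnt pathway components, only Gsk3a passed. Lgr4 and Tle4, which also act in Wnt signalling, were outside this list and fell (limma adjusted p = 0.00823 and 0.00590). Their values are given at the end. Ctnnb1, which encodes β-catenin, had 921 and 918 untreated and 902 and 930.5 with the inhibitor, an adjusted p of 0.959. The scaffold Axin1 had 66.2 and 68.1 untreated and 65.1 and 68.2 with the inhibitor and Apc 92.2 and 94.5 untreated and 89.5 and 94.3 with the inhibitor, both overlapping. In glycogen metabolism none of 15 tested genes passed limma's test in either direction, and 4 had an unadjusted p under 0.05, where 11.8% of all tested genes did. Gys1, the glycogen synthase of most tissues, had 37.5 and 41.1 untreated and 37.8 and 40.02 with the inhibitor, and the glycogen phosphorylase Pygb had 22.3 and 21.6 untreated and 26.4 and 25.2 with the inhibitor (adjusted p = 0.121).

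Nodal targets gave the largest falls. The gene lists, here and below, were written with earlier results of these data known. Counts of members beside all tested genes thus describe the lists and test no pathway. Of 13 tested Nodal targets, 4 fell, where 0.616% of all tested genes did, and none rose. The treated libraries lay below the untreated ones for 10 of them, against 19.0% of all tested genes; the median log2 change was -0.15. Lefty1, a secreted antagonist that Nodal signalling induces (chromosome 1, 180935022 to 180938400), had values of 21.7 and 20.95 untreated and 8.86 and 9.45 with the inhibitor. Both treated libraries lay under the lower untreated one by more than the whole span of either group. The mean fell by 57.1%, a log2 change of -1.14 ± 0.070 (SE, adjusted p = 1.48e-08). Lefty2, the neighbouring antagonist (chromosome 1, 180893108 to 180899103), had 49.4 and 44.9 untreated and 23.9 and 22.9 with the inhibitor, and its mean fell by 50.4%, a log2 change of -0.98 ± 0.047 (adjusted p = 4.93e-10). Smad7, the inhibitory SMAD that TGF-β family signals induce, had 76.6 and 76.98 untreated and 49.2 and 49.9 with the inhibitor, with replicates almost on top of each other and a log2 change of -0.62 ± 0.049 (adjusted p = 4.69e-07). Skil, which encodes the SMAD corepressor SnoN, had 90.5 and 84.2 untreated and 71.7 and 74.2 with the inhibitor and a log2 change of -0.26 ± 0.044 (adjusted p = 0.00591).

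Most of the remaining Nodal targets lay lower without passing. Tgif1, a SMAD corepressor, had 156 and 169 untreated and 143 and 150.2 with the inhibitor, and Pmepa1, a TGF-β feedback gene, 15.9 and 16.1 untreated and 13.9 and 13.8 with the inhibitor. Nodal itself, a ligand that signals back on its own gene, had 116 and 117 untreated and 107 and 110.1 with the inhibitor (adjusted p = 0.252), and its coreceptor Tdgf1 had 499 and 508 untreated and 471 and 474 with the inhibitor. Eomes, Gsc and Ski had overlapping groups. Of 15 tested ligands, receptors and SMADs of the pathway, none passed limma's test in either direction. At an unadjusted p under 0.05 there were 4, against 11.8% of all tested genes. Inhbb, the activin B subunit, came closest with 21.2 and 21.8 untreated and 17.8 and 18.3 with the inhibitor (log2 -0.24, adjusted p = 0.100). Of the 15, 12 had a negative change and 10 had both treated libraries below both untreated ones. Over all tested genes 19.0% showed that order, and 53.6% had a positive change. The receptor Acvr1b went the other way with 63.3 and 63.6 untreated and 66.6 and 68.8 with the inhibitor, as did Smad3 with 13.9 and 13.99 untreated and 14.7 and 15.8 with the inhibitor, while Smad2 had 45.5 and 45.5 untreated and 44.2 and 42.9 with the inhibitor. Lefty1, Lefty2 and Smad7 kept the call without any single library, and Skil lost it without untreated replicate 1 or either treated library (adjusted p up to 0.197).

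Some feedback genes of the ERK pathway also fell. Of 18 tested members, 5 fell (0.616% over all tested genes), none rose, and 12 had treated libraries below the untreated ones (19.0% over all), with a median log2 change of -0.094. Spry4, a Sprouty inhibitor of receptor tyrosine kinase signalling, had 66.2 and 71.5 untreated and 45.5 and 47.96 with the inhibitor, a log2 change of -0.55 ± 0.047 (SE, adjusted p = 2.02e-06). Epha2, an ephrin receptor that ERK signalling induces (chromosome 4, 141301240 to 141329384), had 163 and 168 untreated and 114 and 115 with the inhibitor and a log2 change of -0.53 ± 0.033 (adjusted p = 1.48e-08). The replicates of Epha2 differed by far less than the groups. Dusp4, a nuclear phosphatase that inactivates ERK, had 18.9 and 20.5 untreated and 14.97 and 15.1 with the inhibitor (log2 -0.36, adjusted p = 0.0257). Dusp6, its cytoplasmic relative, had 52.6 and 55.7 untreated and 45.9 and 44.5 with the inhibitor (log2 -0.25, adjusted p = 0.0205). In both phosphatases the groups were separate but the distance was modest. Spry2 had 41.9 and 43.2 untreated and 36.96 and 36.5 with the inhibitor and lay just inside the threshold (adjusted p = 0.0440), which it missed with equal totals or without either treated library of the GSK3β line. Il17rd, an FGF receptor antagonist, lay just outside it with 63.6 and 57.2 untreated and 52.2 and 51.8 with the inhibitor (adjusted p = 0.0547). The ETS factors, often used as ERK readouts, did not pass. Etv4 had 77.2 and 79.4 untreated and 78.99 and 79.8 with the inhibitor (adjusted p = 0.905), and Etv5 had 569 and 592 untreated and 558 and 563 with the inhibitor (adjusted p = 0.537). Spry4 and Epha2 passed without any single library; without untreated replicate 1 or 2 the list held 3 calls, without treated replicate 1 or 2 it held 2, and without either treated library of the GSK3β line 4. The call of Dusp4 ended without any 1 library of the line (adjusted p up to 0.293), as did that of Spry2 (up to 0.334), while Dusp6 held only without untreated replicate 1 among these 4 leave-outs (up to 0.199).

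The FGF ligands moved in both directions. Fgf15, a secreted FGF, had 8.41 and 9.90 untreated and 5.81 and 6.26 with the inhibitor (log2 -0.53 ± 0.10, adjusted p = 0.0167), and of the 4 losses of a library of the line the call withstood only that of untreated replicate 1 (adjusted p up to 0.290). Fgf4, the main autocrine FGF of stem cells, had 232 and 228 untreated and 249.8 and 255 with the inhibitor, a small rise of 0.14 ± 0.032 on the log2 scale that stood at the threshold (adjusted p = 0.0497) and was lost without any 1 library of the line or either treated GSK3β library (up to 0.324), and also with a pseudocount of 0.5, no filter, median-ratio scaling or length and GC trends removed. None of the other 11 tested FGF ligands, receptors and adaptors passed. Fgfr1, the main FGF receptor gene of these cells, had 119 and 115 untreated and 116 and 119 with the inhibitor. Hbegf, a ligand of the EGF receptor, had 22.95 and 23.7 untreated and 18.6 and 18.4 with the inhibitor and fell by 0.32 on the log2 scale (adjusted p = 0.0191, and up to 0.197 without a library of the line). Of 18 tested immediate early genes, which respond to mitogens within minutes, none passed limma's test in either direction. An unadjusted p under 0.05 was found for 6 of them, against 11.8% of all tested genes. Egr1, an early zinc finger factor, had 1.42 and 1.19 untreated and 2.39 and 1.77 with the inhibitor (adjusted p = 0.252). Junb, an AP-1 subunit, had 11.5 and 11.2 untreated and 9.56 and 9.89 with the inhibitor.

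**Figure D3:**
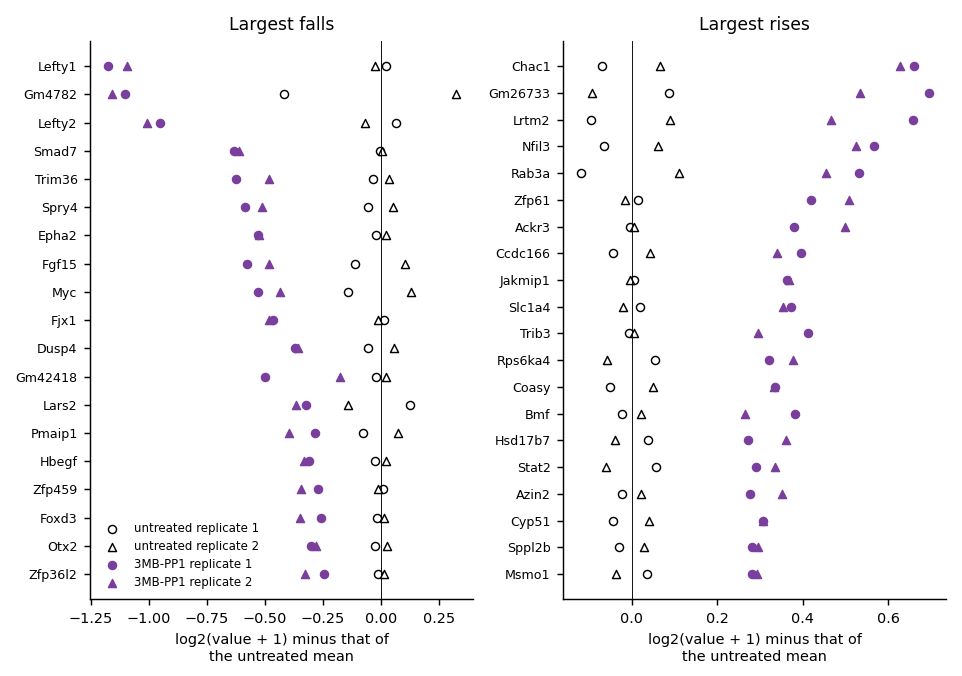
Each library's log2(value + 1) relative to the log2 of the untreated mean plus 1 (x axis) for the called genes with the largest falls (left) and rises (right), with open symbols for untreated and filled symbols for treated libraries, circles for replicate 1 and triangles for replicate 2. The groups do not overlap for any gene shown, and the untreated libraries of Gm4782 lie farther apart than those of the other falls.

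Myc, the growth-promoting transcription factor, was among the larger falls. It had 34.7 and 42.02 untreated and 26.3 and 28.1 with the inhibitor, so the untreated libraries differed from each other more than the treated ones did, and both lay above them. The log2 change was -0.48 ± 0.068 (SE, adjusted p = 0.00154), and only the loss of treated replicate 1 among the 8 libraries ended the call (adjusted p = 0.0724). Mycn, its paralog, had 129.8 and 134 untreated and 117 and 119.5 with the inhibitor, a log2 change of -0.16 ± 0.033 (adjusted p = 0.0304, and up to 0.391 without any 1 library of the line, each of which ended the call). Of 14 tested members of the MYC, MAX and MXD family these 2 fell (0.616% over all tested genes) and none rose. Mycl, the remaining MYC paralog, had 18.7 and 17.1 untreated and 20.9 and 19.1 with the inhibitor and did not pass. None of 24 tested genes of nucleolar ribosome biogenesis, a process that MYC drives, passed limma's test in either direction. An unadjusted p under 0.05 was found for 3, against 11.8% of all tested genes. The largest change at a value of 5 or more was that of Wdr43 (adjusted p = 0.239). It had 274 and 279 untreated and 261 and 261 with the inhibitor. The list had a median log2 change of -0.022.

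Transcription factors of the epiblast were among the falls, while core pluripotency factors did not pass the test. Of 18 tested genes of the formative and primed epiblast, 4 fell (0.616% over all tested genes) and none rose. The treated libraries lay below the untreated ones for 11 and above them for 4, the second a share near the 23.0% over all tested genes, where 19.0% lay below; the median log2 change was -0.073. Otx2, a homeobox factor that leads the exit from the naive state, had 63.8 and 66.3 untreated and 52.5 and 53.4 with the inhibitor (log2 -0.29, adjusted p = 0.00172), and it was lost without treated replicate 1 only (adjusted p = 0.0604). Foxd3, a forkhead factor of the same transition, had 38.5 and 39.3 untreated and 32.4 and 30.3 with the inhibitor (log2 -0.30, adjusted p = 0.00590, and up to 0.135 without untreated replicate 2 or treated replicate 2, either of which ended the call). Fgf15, a member of this list, also fell. Grhl2, an epithelial factor, had 26.6 and 26.5 untreated and 23.6 and 21.4 with the inhibitor and did not pass (adjusted p = 0.100). The usual markers of the formative state did not pass either. Pou3f1, a POU factor, had 8.36 and 7.61 untreated and 8.53 and 7.32 with the inhibitor, with overlapping groups. Fgf5, a secreted FGF, had 2.40 and 2.47 untreated and 2.76 and 2.94 with the inhibitor, with the treated libraries higher. Dnmt3b, a de novo DNA methyltransferase, had 236 and 240.3 untreated and 232 and 232 with the inhibitor.

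Of 22 tested naive and general pluripotency factors, 1 fell and none rose, where 0.616% of all tested genes fell and 0.265% rose. It was Nr5a2, a nuclear receptor that binds the Pou5f1 gene, with 70.4 and 67.8 untreated and 60.5 and 61.4 with the inhibitor (log2 -0.18, adjusted p = 0.0365, and up to 0.374 without any 1 library of the line, each of which ended the call, as did the loss of either treated GSK3β library). Klf5 missed the threshold narrowly with 88.5 and 90.5 untreated and 75.1 and 79.1 with the inhibitor (adjusted p = 0.0518). Nanog, of the core network, had 829.7 and 826 untreated and 841 and 855 with the inhibitor, and did not pass. Among STAT3 pathway genes, 1 of 17 fell: Pim1, a kinase that STAT3 induces, with 96.3 and 95.5 untreated and 82.4 and 83.3 with the inhibitor (adjusted p = 0.00563, and up to 0.130 without a treated library). Among 13 tested BMP pathway and ID genes 1 fell, Id3, an inhibitor of helix-loop-helix factors, with 58.9 and 61.2 untreated and 52.2 and 51.9 with the inhibitor (adjusted p = 0.0304, and up to 0.293 without a library of the line). Tet2, an enzyme that oxidises methylated cytosine, had 151 and 144 untreated and 128 and 135 with the inhibitor and was the 1 of 9 DNA methylation enzymes that fell (adjusted p = 0.0311, and up to 0.465 without untreated replicate 1 or a treated library, and the call also ended without either treated GSK3β library).

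Enzymes of cholesterol synthesis lay higher by small amounts, and several passed the test. Of 20 tested, 7 rose (0.265% over all tested genes), none fell, 19 had a positive change and 18 had both treated libraries above both untreated ones, against 23.0% of all tested genes for that order; the median log2 change was 0.15. Hmgcs1, which makes HMG-CoA, had 444 and 441 untreated and 495 and 497 with the inhibitor, a log2 change of 0.17 ± 0.030 (SE, adjusted p = 0.00916). The replicates of each group lay close together and the groups were well apart.

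Among the enzymes that passed, those after squalene had the larger log2 changes. Lss, which closes the ring of lanosterol, had 86.7 and 82.5 untreated and 98.9 and 96.8 with the inhibitor (log2 0.21, adjusted p = 0.00845). Cyp51, which removes a methyl group from lanosterol (chromosome 5, 4081145 to 4104746), had 72.7 and 77.2 untreated and 92.9 and 93.03 with the inhibitor, a log2 change of 0.31 ± 0.039 (adjusted p = 0.000491). Its treated libraries were nearly equal and lay 24.0% above the untreated mean. Msmo1, an oxidase of sterol methyl groups, had 131 and 125 untreated and 156 and 157 with the inhibitor (log2 0.29, adjusted p = 0.00671). Hsd17b7, a sterol ketone reductase, had 23.8 and 22.5 untreated and 28.2 and 30.1 with the inhibitor (log2 0.32, adjusted p = 0.0136). Dhcr7, the sterol reductase whose loss causes Smith-Lemli-Opitz syndrome, had 50.3 and 47.1 untreated and 60.5 and 58.7 with the inhibitor (log2 0.29, adjusted p = 0.0128). The groups were separate in all of these genes. Mvd, of the mevalonate part, lay higher without passing, with 36.5 and 36.4 untreated and 41.8 and 42.7 with the inhibitor (adjusted p = 0.0557). Ebp, a sterol isomerase, was the exception to the positive sign with 17.3 and 20.6 untreated and 18.2 and 17.5 with the inhibitor. Only Cyp51 passed without any single library: the list held 5 calls without untreated replicate 1, 1 without untreated replicate 2, and 1 without treated replicate 1 or 2. It held 10 without either untreated library of the GSK3β line and 7 without either treated one. In the alternatives that left out no library it held 7 to 9, and with the robust fit Msmo1 was not among them.

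Regulators of sterol supply showed the same sign in part. Of 17 tested genes, 2 rose (0.265% over all tested genes) and none fell. Insig1, which retains the SREBP escort in the endoplasmic reticulum and is itself an SREBP target, had 137 and 136 untreated and 165 and 159 with the inhibitor, a log2 change of 0.25 ± 0.036 (adjusted p = 0.00162, and 0.0737 without treated replicate 1, the 1 loss that ended the call). Srebf1 had 71.7 and 73.96 untreated and 80.4 and 80.6 with the inhibitor (adjusted p = 0.0732), whereas Srebf2, the SREBP most tied to cholesterol genes, had 213 and 216 untreated and 215 and 211 with the inhibitor with overlapping groups. None of 15 tested enzymes of fatty acid synthesis passed limma's test in either direction, with a median log2 change of 0.049. For 4 of them the unadjusted p was under 0.05, against 11.8% of all tested genes. Acacb, an acetyl-CoA carboxylase, had 35.7 and 33.7 untreated and 37.8 and 37.6 with the inhibitor.

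A few targets of ATF4, which directs the integrated stress response, rose. Of 18 tested, 3 rose (0.265% over all tested genes) and none fell; 12 had treated libraries above the untreated ones, against 23.0% of all tested genes, 1 had them below, and the median log2 change was 0.18. Chac1, an enzyme that breaks down glutathione (chromosome 2, 119351229 to 119354381), had 6.14 and 6.85 untreated and 10.8 and 10.6 with the inhibitor, a log2 change of 0.65 ± 0.087 (SE, adjusted p = 0.000927) that held without any single library. Its mean was 65% above the untreated mean, and no called gene had a larger rise on the log2 scale. Trib3, a pseudokinase that feeds back on ATF4, had 19.8 and 19.99 untreated and 26.8 and 24.7 with the inhibitor (log2 0.35 ± 0.062, adjusted p = 0.00671, and up to 0.222 without untreated replicate 1 or treated replicate 1). Atf4 itself had 199 and 211 untreated and 236 and 230.2 with the inhibitor (log2 0.18 ± 0.033, adjusted p = 0.00916); that call ended without untreated replicate 1 or either treated library (up to 0.225).

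The response was uneven among ATF4 targets. Jdp2, a bZIP repressor, had 3.38 and 3.96 untreated and 5.48 and 4.82 with the inhibitor (log2 0.40, adjusted p = 0.113). Ddit3, which encodes CHOP, had 8.41 and 9.61 untreated and 11.8 and 10.3 with the inhibitor (adjusted p = 0.158). The groups of both genes did not overlap, but neither passed. Asns, asparagine synthetase and a classical ATF4 target, had 394 and 407 untreated and 404 and 394 with the inhibitor, with overlapping groups. Sesn2, a stress-induced inhibitor of mTORC1, had 194.7 and 203 untreated and 190.4 and 192 with the inhibitor, with the treated libraries lower. Of 31 genes of amino acid synthesis, transport and tRNA charging, 1 rose, none fell and 17 had treated libraries above the untreated ones, where 0.265% of all tested genes rose and 23.0% showed that order. The gene that rose was Slc1a4, a carrier of neutral amino acids, with 8.76 and 8.51 untreated and 11.5 and 11.3 with the inhibitor (log2 0.36 ± 0.080, adjusted p = 0.0365); without any 1 library of the line, or either treated GSK3β library, its call ended (up to 0.362). Phgdh, the first enzyme of serine synthesis, stood just outside the threshold with 61.01 and 61.9 untreated and 68.3 and 69.1 with the inhibitor (adjusted p = 0.0547). None of 17 tested genes of the unfolded protein response passed limma's test. An unadjusted p under 0.05 was found for 1, against 11.8% of all tested genes. Sdf2l1 had 18.9 and 19.8 untreated and 22.6 and 20.7 with the inhibitor (adjusted p = 0.322).

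**Figure D4:**
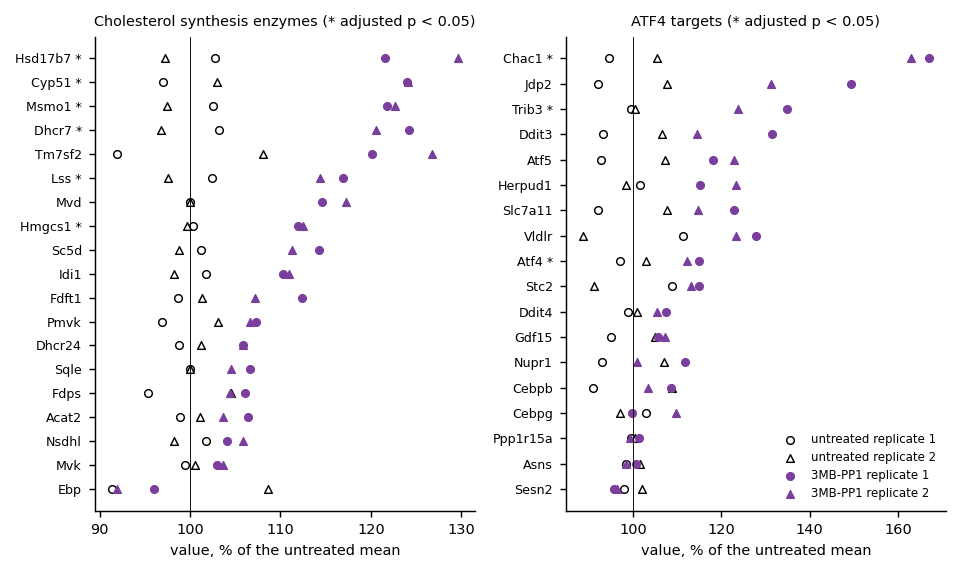
Value of each library as a percent of the untreated mean (x axis) for tested cholesterol synthesis enzymes (left, 1 of the 20 not drawn) and the 18 tested ATF4 targets (right), open symbols untreated and filled symbols treated, with an asterisk at the genes past an adjusted p of 0.05. The treated libraries lie to the right of the untreated ones for most enzymes and for 12 of the 18 ATF4 targets, with Chac1 farthest to the right.

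Promoter windows were searched for short elements known from genes of these lists, so a high share among list members tells nothing about the response. The windows, from RefSeq on build GRCm38.p6, run from 250 bases before to 50 bases after a start, and 10126 of the tested genes had at least 1. The C/EBP-ATF element, spelled TGATGNAA and read on both strands, was in the windows of 8 of 18 ATF4 targets (44.4%) and 7 of 22 amino acid genes (31.8%), against 262 of the 10126 tested genes (2.59%) and 3.97% of all 32851 windows. Of the 29 genes called higher that had a window, 3 held it (10.3%). These were Chac1, Trib3 and Slc1a4. Of the 52 genes called lower that had a window, 3 held it as well (5.77%), Nr5a2 among them. The stretches below are shown because these 3 rises carry the element, here in capitals and in each case on the opposite strand, so that its reverse complement is read. They end at the base before the start, or at the last base of an element that reaches past it.
Chac1: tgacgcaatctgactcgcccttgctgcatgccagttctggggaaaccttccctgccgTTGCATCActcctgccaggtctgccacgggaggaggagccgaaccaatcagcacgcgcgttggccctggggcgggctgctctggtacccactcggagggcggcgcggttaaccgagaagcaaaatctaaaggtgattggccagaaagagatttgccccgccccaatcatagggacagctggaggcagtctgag
Trib3: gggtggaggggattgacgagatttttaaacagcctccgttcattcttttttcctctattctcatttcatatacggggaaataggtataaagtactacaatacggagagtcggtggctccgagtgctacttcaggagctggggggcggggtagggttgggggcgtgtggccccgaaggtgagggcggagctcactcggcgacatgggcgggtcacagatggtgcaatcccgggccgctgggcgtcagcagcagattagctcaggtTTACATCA
Slc1a4: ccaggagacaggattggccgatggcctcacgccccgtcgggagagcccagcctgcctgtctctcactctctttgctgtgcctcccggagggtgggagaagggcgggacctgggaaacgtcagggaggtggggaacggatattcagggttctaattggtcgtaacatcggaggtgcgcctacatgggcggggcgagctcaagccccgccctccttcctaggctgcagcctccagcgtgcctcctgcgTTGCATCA
The stretch of Chac1 is chr2:119350992-119351241 on the plus strand, with the element beginning 193 bases before the start. That of Trib3 is chr2:152344039-152344310 on the minus strand, where the element begins at base 15 of the transcript, and that of Slc1a4 is chr11:20332710-20332963 on the minus strand, where it begins 4 bases before the start. A match describes the letters and shows no binding.

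The sterol element, spelled CACCCCAC and read on both strands, was in the windows of 2 of 15 cholesterol synthesis genes (13.3%), against 397 of the tested genes (3.92%) and 2.87% of all windows. It was in 2 of the 29 genes called higher (6.90%) and 3 of the 52 called lower (5.77%). Hmgcs1 was the 1 called enzyme of 6 with a window that held it, and its stretch is shown for that reason, with the element in capitals.
Hmgcs1: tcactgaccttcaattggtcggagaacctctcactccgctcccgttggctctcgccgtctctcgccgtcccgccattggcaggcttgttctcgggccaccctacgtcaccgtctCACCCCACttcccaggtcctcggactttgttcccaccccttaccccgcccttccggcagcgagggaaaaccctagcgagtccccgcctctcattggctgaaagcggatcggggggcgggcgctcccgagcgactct
It is chr13:119690101-119690350 on the plus strand, and the element begins 136 bases before the start. The FOXH1 element AATNNACA, the TCF element ATCAAAG and the SMAD box CAGAC were searched on both strands too. The FOXH1 element was in 8.45% of tested genes with a window, 10.3% of those called higher and 7.69% of those called lower. For the TCF element these shares were 2.89%, 0% and 0%, and for the SMAD box 52.5%, 48.3% and 53.85%. Lefty1, Lefty2, Smad7, Skil and Myc had no window in the promoter set used here.

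Other lists gave single calls, where 0.616% of all tested genes fell and 0.265% rose. Among the 14 tested BCL2 family genes, Bmf, a BH3-only death activator, rose with 29.98 and 30.9 untreated and 39.97 and 36.8 with the inhibitor (log2 0.32, adjusted p = 0.00591, and up to 0.215 without untreated replicate 1 or treated replicate 1). Pmaip1, which encodes the BH3-only protein NOXA and is also a p53 target, fell with 64.6 and 71.8 untreated and 55.7 and 51.6 with the inhibitor (log2 -0.34, adjusted p = 0.00195, and 0.0831 without treated replicate 2); it was the 1 of 17 p53 targets that passed, and Cdkn1a had 70.1 and 71.8 untreated and 62.5 and 59.2 with the inhibitor (adjusted p = 0.0547). Sirt1, the nuclear NAD-dependent deacetylase and the 1 of 7 sirtuins that passed, had 188 and 189.5 untreated and 156 and 158 with the inhibitor, a log2 change of -0.27 ± 0.031 (SE, adjusted p = 0.000144) that held without any single library. Nfil3, a bZIP repressor tied to the circadian clock, rose from 4.94 and 5.49 to 8.20 and 7.93 (log2 0.55 ± 0.099, adjusted p = 0.00916; up to 0.197, with only the loss of untreated replicate 2 of the 4 libraries sparing the call). In the cell cycle lists, the G1/S factor E2f1 rose with 35.1 and 31.4 untreated and 40.3 and 39.5 with the inhibitor (adjusted p = 0.0208) and cyclin D2, Ccnd2, fell with 35.4 and 32.03 untreated and 28.2 and 28.1 with the inhibitor (adjusted p = 0.0297), 1 each of 26; without a treated library both calls ended, with adjusted p up to 0.303 and 0.290 over the losses in the line, and that of E2f1 also ended with length and GC trends removed. None of 24 tested G2/M genes passed limma's test (2 at an unadjusted p under 0.05, against 11.8% of all tested genes).

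Slc2a1 and Ajuba were single falls of their lists, where 0.616% of all tested genes fell. Slc2a1, the glucose carrier GLUT1, had 227 and 234 untreated and 207 and 209.7 with the inhibitor (adjusted p = 0.0416), and Ajuba, a LIM protein that restrains the LATS kinases, 154 and 159 untreated and 136 and 145 with the inhibitor (adjusted p = 0.0477). The lists are those of glycolysis (26 tested) and of YAP and SRF targets (18), and both calls ended without any 1 library of the line or either treated GSK3β library. The call of Ajuba also ended with equal totals or no filter, and that of Slc2a1 in a fit with the replicate number as a block. No gene passed limma's test in the lists of NRF2 targets (17), heat shock proteins (14), lysosome genes (20), Notch (12) and Hedgehog (9). In this order 2, 2, 3, 2 and 2 had an unadjusted p under 0.05, against 11.8% of all tested genes. Nearest to the threshold at a value of 5 or more was Gli1, a Hedgehog target (adjusted p = 0.0599). It had 20.6 and 21.8 untreated and 24.8 and 26.01 with the inhibitor.

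**Figure D5:**
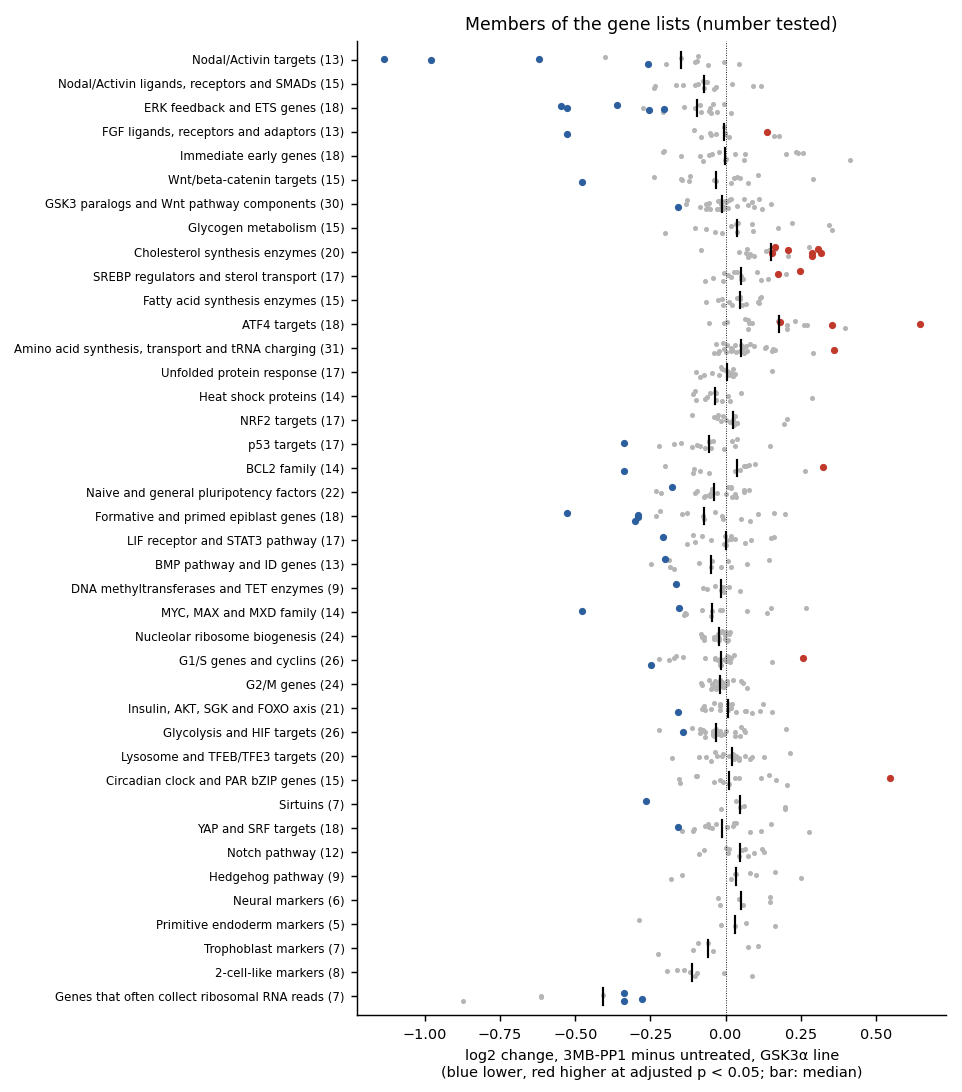
Log2 change of each tested member of the lists with at least 5 tested members (x axis), red where called higher, blue where called lower and grey otherwise, with the median of the list as a black bar and the number tested in brackets. The leftmost blue points are Lefty1, Lefty2 and Smad7, and red points are most frequent among the cholesterol enzymes.

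Several of the larger changes lay outside these lists. Among the falls, Trim36, a ubiquitin ligase, had 11.3 and 11.9 untreated and 7.19 and 8.05 with the inhibitor (log2 -0.55 ± 0.084, adjusted p = 0.00237, and 0.0855 without treated replicate 1). Fjx1, a relative of a planar polarity kinase of Drosophila, had 14.99 and 14.7 untreated and 10.5 and 10.4 with the inhibitor (log2 -0.47 ± 0.073, adjusted p = 0.00285, up to 0.0633 without a treated library). Zfp36l2, which destabilises AU-rich transcripts, had 62.1 and 63.1 untreated and 52.6 and 49.7 with the inhibitor (log2 -0.29, adjusted p = 0.00297), and Zfp459, a zinc finger gene, 64.8 and 63.8 untreated and 53.1 and 50.4 with the inhibitor (log2 -0.31, adjusted p = 0.00237); both were lost without treated replicate 2. Gm4782, a processed pseudogene on chromosome 6, had 3.65 and 6.78 untreated and 1.89 and 1.78 with the inhibitor, with a wide gap between the untreated libraries. Its log2 change of -1.08 ± 0.22 (adjusted p = 0.0196) was lost without untreated replicate 2 or either treated library (up to 0.229) and with the robust fit, and reads of a processed pseudogene may belong to its parent gene.

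Among the rises, Lrtm2, a leucine-rich repeat membrane protein, had 5.43 and 6.29 untreated and 9.82 and 8.48 with the inhibitor (log2 0.56 ± 0.11, adjusted p = 0.0136). Rab3a, a small GTPase of vesicle release, had 3.74 and 4.55 untreated and 6.44 and 6.05 with the inhibitor (adjusted p = 0.0324), and Ackr3, a scavenger receptor of the chemokine CXCL12, 4.05 and 4.08 untreated and 5.59 and 6.16 with the inhibitor (adjusted p = 0.0407). The values of these genes lie below the median of 22.1 over all tested genes, so that each rests on fewer reads than most. Stat2, a factor of the interferon response, had 29.7 and 27.3 untreated and 35.1 and 36.3 with the inhibitor (log2 0.31, adjusted p = 0.00563). Azin2, an antizyme inhibitor of polyamine metabolism, had 24.3 and 25.1 untreated and 30.1 and 31.7 with the inhibitor (log2 0.31, adjusted p = 0.00743). Rps6ka4, the kinase MSK2, had 14.3 and 13.2 untreated and 17.4 and 18.1 with the inhibitor (log2 0.35, adjusted p = 0.0225). The treated libraries lay above the untreated ones in each, as in Coasy, coenzyme A synthase, with 12.2 and 13.2 untreated and 16.3 and 16.3 with the inhibitor (log2 0.33, adjusted p = 0.0415). Zfp61, Ccdc166, Jakmip1, Sppl2b and the long non-coding RNA Gm26733 had log2 changes of 0.46, 0.37, 0.37, 0.29 and 0.62. The calls of all these rises ended without treated replicate 1, with adjusted p between 0.101 (Stat2) and 0.457 (Gm26733) at the least favourable loss of a library of the line. Those of Gm26733, Ackr3, Jakmip1, Coasy and Sppl2b also ended in at least 1 setting that kept all libraries of the line.

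Most transcripts with the highest values among the calls changed by under 1.25-fold. Srsf3, a splicing factor, had 591 and 587 untreated and 523 and 514 with the inhibitor (log2 -0.18, adjusted p = 0.00563). Srsf7, of the same family, had 285 and 283 untreated and 253 and 245 with the inhibitor (log2 -0.19, adjusted p = 0.00563). Mat2a, which makes S-adenosylmethionine, had 647 and 651 untreated and 597 and 597 with the inhibitor (log2 -0.12, adjusted p = 0.0481). Rest, a repressor of neuronal genes, had 372 and 368 untreated and 326 and 338 with the inhibitor (log2 -0.16). These gaps were small but exceeded those between replicates. Bclaf1, Kdm3a and Slc20a1, which encode an RNA-binding factor, a histone demethylase and a phosphate carrier, had log2 changes of -0.16, -0.13 and -0.14. None of these held without treated replicate 1, with adjusted p up to 0.483 for Kdm3a; the calls of Mat2a and Kdm3a also ended with equal totals or no filter.

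Listed genes that often collect reads of ribosomal or other abundant non-coding RNA also had lower values with the inhibitor. All 7 tested had a negative change, 3 fell (0.616% over all tested genes), and the median log2 change was -0.41. Their summed value was 2699 and 2301 untreated and 1974 and 1976 with inhibitor, most of it from Lars2. Rn18s-rs5 and AY036118, given at the end, were outside this list, uncalled and far apart between replicates. Lars2, the mitochondrial leucyl-tRNA synthetase gene, had 2307 and 1917 untreated and 1689 and 1637 with the inhibitor (log2 -0.34 ± 0.067, adjusted p = 0.0180), with a wide gap between the untreated libraries. The long non-coding RNA Gm42418 had 125 and 129 untreated and 89.3 and 112 with the inhibitor (adjusted p = 0.0196), and Gm26917, which lies beside it, had 244 and 248 untreated and 192 and 214 with the inhibitor (adjusted p = 0.00463). Without treated replicate 1 none of the list passed, and without untreated replicate 2 it held 5 calls; in the robust fit Lars2 and Gm42418 did not pass. The part of ribosomal RNA reads in the other falls was not tested.

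Markers of other cell types did not move past the threshold. Among the tested neural (6), mesendoderm (4), and fibroblast and feeder (3) genes none passed limma's test in either direction. The same held for the primitive endoderm (5), trophoblast (7) and 2-cell-like (8) genes. An unadjusted p under 0.05 was found for 1 neural, 1 mesendoderm and 1 2-cell-like gene, against 11.8% of all tested genes. The summed value of the neural list was 153 and 160.4 untreated and 169 and 170.2 with inhibitor, most of it from Tubb3, a neuronal tubulin with 109 and 117 untreated and 124 and 127 with the inhibitor (adjusted p = 0.105). The mesendoderm sum was 18.9 and 19.4 untreated and 17.03 and 18.2 with inhibitor, that of primitive endoderm 244 and 248 untreated and 248 and 244 with inhibitor, and that of trophoblast 131 and 131.7 untreated and 129.6 and 131 with inhibitor. That of the 2-cell-like list was 124 and 128 untreated and 120.0 and 118 with inhibitor. The fibroblast and feeder sum was 11.3 and 11.6 untreated and 13.3 and 12.5 with inhibitor, with no values listed for 6 of the 10 markers (Col3a1, Postn, Dcn, Lum, Fap and S100a4). Fewer cells of a state and less RNA per cell cannot be told apart in these bulk libraries.

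The change with 3MB-PP1 differed between the lines for 911 genes (6.53% of those tested), by the interaction term of the same fit. Among the 93 genes named by rule these were 37. Axin2 was 1 of them, and so were Lefty1, Dusp6, Fgf4 and Id3.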

How the data were processed

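RNA from 8 libraries of mouse E14 embryonic stem cells, 2 in each of 4 groups, was made into sequencing libraries with an Illumina TruSeq kit, per the labels. The reads were aligned with TopHat2 and summarised with Partek on mm10, per the submitters' processing notes. Versions, gene annotation, strand setting and filters are not given in the sources used here. The deposited values are a signal: gene counts that the authors scaled to an almost equal upper quartile of 46.5 in every library, so they are no raw counts. Reads per value were estimated from the smallest value of each library, and precision depends on that depth. Genes with a mean of at least 1 were tested on log2(value + 1) with limma-trend (limma 3.58.1, R 4.3.3; data.table version 1.17.8), with 4 group means, all 8 libraries, 4 residual degrees of freedom and Benjamini-Hochberg adjustment over the 13959 genes, two-sided, at 0.05. With 2 against 2 libraries an exact permutation test cannot go below p = 0.333. Other scripts used Python 3.11.15, numpy 2.4.6, pandas 2.3.3 and matplotlib 3.10.9. The fit was tested on simulated data.

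The genes named are Gsk3a, Gsk3b, Axin2, Ctnnb1, Gys1 and Myc; the 20 largest rises and falls and the 10 highest values among called genes; and up to 8 called members of each of 42 lists or, with none called, the member with the largest change at a mean of at least 5. Other members are given from whole lists, and which of them are printed was chosen after their values were seen. A few genes are counted but not reported by name here. Members and lists were chosen with earlier results of these data known. Gene positions are from GENCODE on GRCm38 (mm10), and promoters from RefSeq. There were 18 alternatives, of which 1 was added later.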

Additional observations from a re-analysis of the deposited data

Results flagged for a closer look

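For 37 of the 93 named genes the change with 3MB-PP1 differed between the lines, by the interaction term of the limma fit (adjusted p under 0.05). Over all tested genes 6.53% did, but most named genes were chosen for their change in the GSK3α line, which enters this difference, so nothing is read from the count. Values are given for 36 of them and are the log2 change in the GSK3β line minus that in the GSK3α line. The largest differences among Wnt, Nodal and ERK genes were those of Axin2 at 1.35 (adjusted p = 5.20e-08), Lefty1 at -1.40 (adjusted p = 6.25e-08), Dusp6 at -0.92 (adjusted p = 2.12e-07), Inhbb, not called in the GSK3α line, at -0.78 (adjusted p = 2.34e-05), Fgf4 at -0.66 (adjusted p = 5.20e-08) and Fgf15 at -0.65 (adjusted p = 0.0104). Negative values also held for Spry4 at -0.38, Epha2 at -0.29, Skil at -0.24, Myc at -0.38, Otx2 at -0.25, Slc20a1 at -0.20 and Ajuba at -0.23, all of which fell in the GSK3α line.

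Genes that rose in the GSK3α line, and had a lower change in the other, were Cyp51 at -0.36 (adjusted p = 0.000516), Dhcr7 at -0.35, Insig1 at -0.34, Msmo1 at -0.32, Hmgcs1 at -0.25 and Lss at -0.24 in sterol metabolism, and Nfil3 at -0.49, Bmf at -0.45, Azin2 at -0.43, Rps6ka4 at -0.40 and E2f1 at -0.27. Hspa1a, not called in the GSK3α line, stood at -0.97 (adjusted p = 0.00100).

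Genes with a positive difference that fell in the GSK3α line were Id3 at 0.86 (adjusted p = 6.25e-08), Nr5a2 at 0.56 (adjusted p = 3.48e-06), Tet2 at 0.36, Bclaf1 at 0.21, Kdm3a at 0.20, Gsk3a at 0.19, the pseudogene Gm4782 at 1.97 (adjusted p = 0.000537), and Lars2, Gm26917 and Gm42418, which often collect ribosomal RNA reads, at 0.46, 0.35 and 0.34. Axin2, above, and Tubb3, at 0.37, had a positive difference and were not called in the GSK3α line.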

How the results depend on the processing

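No called gene changed direction in any of the 18 alternatives. The groups of every called gene were separate, so only rescaling and the removal of length and GC trends could have reversed a direction. Against 123 calls, leaving out 1 library gave 16 to 186 (rises 3 to 62, falls 13 to 124), the difference between the lines 353 to 1339 against 911, and non-overlapping genes 4976 to 5980 higher and 4186 to 5049 lower. Where 1 library of a group was left out, the lone one was assumed to vary like the other groups. The number of non-overlapping genes could then only stay equal or rise, from 3210 higher and 2651 lower with all libraries. With length and GC trends removed, falls numbered 133 (80.1% of calls against 69.9%), a setting chosen after seeing the data. The other settings, apart from the block below, gave 110 (equal totals) to 168 calls (only the 4 libraries of the GSK3α line), and 92 of the 123 passed in each of the 10 settings that were no leave-outs. Replicate numbers showed no pairing over all genes. Replicate 2 minus replicate 1 correlated at -0.044 between the untreated and treated groups of the GSK3α line. A pairing of only some genes would not show in this value. A fit with the replicate number as a block gave 106 calls, 31 higher and 75 lower, 102 of them shared; the call of Slc2a1 was among those it ended. Depth limits low genes: the median SE was 0.14 in the lowest of 5 bins by value and 0.035 in the highest. A response at the protein level, or one over before 2 h or begun after, was not measured.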

Other observations

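Called genes outside the lists and the naming rule, chosen here after their values were seen, included surface receptors, corepressors and carriers. Lower with inhibitor were Enc1, an actin-binding protein, with 182 and 184 untreated and 147 and 159 with the inhibitor (adjusted p = 0.000977), Tiparp, a mono-ADP-ribosyltransferase induced by the aryl hydrocarbon receptor, with 76.9 and 78.8 untreated and 64.5 and 68.2 with the inhibitor (adjusted p = 0.00590), and Slc7a7, a carrier of cationic amino acids, with 82.2 and 82.9 untreated and 69.6 and 69.1 with the inhibitor (adjusted p = 0.00187). Lgr4, a receptor of R-spondins that strengthens Wnt signals, had 109 and 104 untreated and 91.5 and 93.7 with the inhibitor (adjusted p = 0.00823), and Tle4, a corepressor that binds TCF factors, 176 and 179.5 untreated and 151 and 159 with the inhibitor (adjusted p = 0.00590). Kdm2b, a CpG-binding subunit of Polycomb complexes, had 214 and 211 untreated and 188 and 184 with the inhibitor (adjusted p = 0.00473), and Gja1, the gap junction protein connexin 43, 118 and 115 untreated and 103 and 104 with the inhibitor (adjusted p = 0.0224). Apela, a secreted peptide hormone of stem cells, had 30.6 and 29.1 untreated and 24.7 and 24.5 with the inhibitor (adjusted p = 0.0136). E130012A19Rik, with 244 and 244 untreated and 209.7 and 208 with the inhibitor (adjusted p = 0.000491), passed without any single library, while the calls of the others named here ended without treated replicate 1.

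Higher with inhibitor were Cldn4, a tight junction protein, with 60.8 and 58.7 untreated and 71.5 and 71.7 with the inhibitor (adjusted p = 0.00542), Nfkbia, the inhibitor of NF-κB that NF-κB induces, with 32.7 and 31.8 untreated and 37.8 and 38.2 with the inhibitor (adjusted p = 0.0264), Aacs, acetoacetyl-CoA synthetase, which supplies lipid synthesis, with 41.8 and 43 untreated and 48.8 and 48.9 with the inhibitor (adjusted p = 0.0311), and H1f0, a linker histone, with 91.9 and 90.1 untreated and 102 and 102 with the inhibitor (adjusted p = 0.0302). Their groups did not overlap, and each call ended without treated replicate 1.

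Wide gaps between replicates at high values were seen in the uncalled genes Rn18s-rs5, related to 18S ribosomal RNA, with 4232 and 1362 untreated and 817 and 3109 with the inhibitor, and the long non-coding RNA AY036118, with 501 and 127 untreated and 69.1 and 354 with the inhibitor. In both, untreated replicate 1 and treated replicate 2 were high and the other libraries low.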
